A study of Homo sapiens with 4 samples.

Results

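The endothelin genes comprise 3 ligand genes, EDN1, EDN2 and EDN3, the converting enzymes ECE1 and ECE2, and the receptors EDNRA and EDNRB. They were taken by gene symbol from the transcript names of the count files, which gave 7 genes and 31 transcripts among 34608 genes and 119207 transcripts. RNA was sequenced from A549, an epithelial cell line established from a human lung adenocarcinoma, after 3 h with 100 nM dexamethasone (called dex, 2 libraries) or 3 h with 0.02% ethanol as vehicle (called etoh, 2 libraries). Dexamethasone is a synthetic steroid ligand of the glucocorticoid receptor. Both groups were the same cell line grown in F12K medium, and the labels name no genetic change. Nothing in the labels tells whether replicate libraries were separate cultures, so spreads and p-values refer to these libraries only and may be technical. The family was taken up because EDN2 had been seen to be higher and EDN1 lower in dex, so the values of its members in this contrast are given as descriptions. The members were part of the fit over all genes, and their calls in it are stated without p-values and support nothing.

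Endothelins are short peptides that contract smooth muscle and act as growth and differentiation signals. Each is made as a large precursor, which furin-type convertases trim to an inactive intermediate called big endothelin, and endothelin-converting enzymes cut this to the active peptide. The peptides act on G protein-coupled receptors: EDNRA, which binds endothelin-3 only weakly, and EDNRB, which binds all of the peptides and also clears them. Endothelin-1, from EDN1, is best known as a product of vascular endothelium and is also made by airway epithelium, where it is studied as a constrictor of the airways. Endothelin-2, from EDN2, is known from gut and ovary, and endothelin-3, from EDN3, from the development of enteric neurons and pigment cells.

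The libraries held 9764159 to 11887526 reads aligned to transcripts. Levels are given as aligned reads scaled to a library total of 1000000 aligned reads (CPM), as mean ± SD over n = 2 libraries, or, to compare genes, as the same per kilobase of transcript (RPKM). Of 7 epithelial and A549 markers, the keratin genes KRT8 and KRT18 had 1660 to 3805 CPM and were called higher in dex. The other 5 (KRT19, EPCAM, CDH1, AKR1C1 and ALDH1A1) were not called, with log2 fold changes of -0.22 to 0.15. ALDH1A1 had 15092 to 17707 CPM, AKR1C1 611 to 716, CDH1 32.6 to 37.3, KRT19 14.0 to 15.3 and EPCAM 8.34 to 11.3 CPM. Of 5 endothelial markers (CDH5, VWF, TEK, KDR and CLDN5), VWF was at 0 in every library. The summed level of all 5 was 0.718 to 1.02 CPM in dex and 0.252 to 0.307 CPM in etoh. In etoh this sum was CDH5 alone, at 3 reads in each library. In dex no marker had more than 5 reads in a library, so these sums are imprecise. PECAM1, also planned as an endothelial marker, was not found among the gene symbols of the count files. Of 5 alveolar type II markers, SFTPA1 was at 0 in every library, SFTPC had 1 read in all, SFTPB had 0 to 4 and NAPSA 7 to 12 reads per library, and ABCA3 had 40.7 and 29.2 CPM in dex against 23.7 and 27.3 CPM in etoh and was called higher. Of 6 smooth muscle and fibroblast markers, only COL1A1 was called, and it was higher in dex (log2 fold change 0.56). It had 16.7 and 21.3 CPM in dex against 10.4 and 15.4 CPM in etoh. ACTA2 (log2 fold change 0.13) and MYH11 (-0.53) were not called, and DES, CNN1 and PDGFRB had 0 to 3 reads per library. The summed level of all 6 was 27.4 and 28.3 CPM in dex against 17.9 and 26.1 CPM in etoh. Of 4 blood markers, CD3E and HBB were at 0 in every library, PTPRC had 1 read in all, and none was called. The summed level was 3.28 to 4.17 CPM, nearly all from CD68, which had 36 to 43 reads per library. In the fit over all genes, 11.4% of tested genes were called. The part of these markers in the results was not tested.

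The start regions of EDN1 and EDN2 are shown because these genes are read against each other below, EDN2 being higher and EDN1 lower in dex. The windows run from 250 bases before to 50 bases after the annotated start and come from RefSeq (GRCh38.p14). RefSeq gives 3 windows for EDN1, of which the one that holds the start of the counted transcript EDN1-001 is used, and 1 window for EDN2. The EDN1 window used is chr6:12290111-12290410 on the plus strand and the EDN2 window is chr1:41484634-41484933 on the minus strand. Capitals mark matches to the motifs TTATCT (bound by GATA factors), TGACTAA and TGACTCA (bound by AP-1), CACGT (the core of a hypoxia element), TATAA (the TATA box, searched on the sense strand only), and TGTTCT (the half-site of the glucocorticoid receptor element), the others being searched on both strands.
EDN1: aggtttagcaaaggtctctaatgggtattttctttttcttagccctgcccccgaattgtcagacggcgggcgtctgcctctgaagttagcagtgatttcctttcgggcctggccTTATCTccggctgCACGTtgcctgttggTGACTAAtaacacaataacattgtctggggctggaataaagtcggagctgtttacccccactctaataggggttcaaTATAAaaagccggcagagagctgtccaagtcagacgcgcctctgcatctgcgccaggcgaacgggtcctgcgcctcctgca
EDN2: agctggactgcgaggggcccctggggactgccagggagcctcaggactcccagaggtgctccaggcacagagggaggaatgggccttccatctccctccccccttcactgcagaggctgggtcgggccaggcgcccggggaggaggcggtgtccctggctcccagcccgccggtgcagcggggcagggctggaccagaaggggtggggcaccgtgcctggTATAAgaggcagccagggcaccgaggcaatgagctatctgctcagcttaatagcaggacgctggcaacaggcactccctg

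The EDN1 window held TTATCT 136 bases, CACGT 123 bases and TGACTAA 108 bases before the start. Of 35093 promoter windows, 10.3% held TTATCT, 21.4% held CACGT and 1.90% held TGACTAA. None of these letters was found in the EDN2 window. Both windows held TATAA, 31 bases before the start in EDN1 and 30 bases before it in EDN2, a match found in 14.8% of windows. TGACTCA, present in 4.95% of windows, and the half-site TGTTCT, present in 14.8%, matched neither gene. G and C made up 52.7% of the EDN1 window and 68.3% of the EDN2 window, against a median of 58.7% over all windows. A match of letters is a description of the sequence and not evidence of binding.

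EDN2 was the abundant ligand transcript in dex and a minor one in etoh. EDN2 had 438 and 522 reads in dex, which are 44.6 and 46.9 CPM, against 39 and 40 reads in etoh, which are 3.99 and 3.36 CPM. Both dex libraries lay far above both etoh libraries, and the 2 libraries of each group were close to each other. The mean was 45.7 ± 1.63 CPM in dex and 3.68 ± 0.445 CPM in etoh, and edgeR, a count model fitted over all genes, gave a log2 fold change of 3.66 (SE 0.17), a 12.6-fold higher level. The ratio of summed reads was 12.7, with a 95% interval of 10.1 to 16.2 that covers counting error only. EDN2 had 1 transcript, EDN2-001 of 1241 bases, and its gene lies on chromosome 1 from 41478775 to 41484673 on the minus strand of GRCh38. By log2 fold change EDN2 stood 23rd among the 1031 genes called higher in dex. In cells taken in bulk, a change in the share of cells that hold a transcript and a change in its amount per cell cannot be told apart.

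EDN3 was close to the limit of detection in etoh and clearly counted in dex. It had 118 and 110 reads in dex, which are 12.0 and 9.88 CPM, against 2 and 7 reads in etoh, which are 0.205 and 0.589 CPM. The groups did not overlap, and the etoh libraries lay near the floor of 3 reads, which is 0.252 to 0.307 CPM in them. The mean was 10.9 ± 1.51 CPM in dex and 0.397 ± 0.272 CPM in etoh, and the log2 fold change was 4.70 (SE 0.36), which placed EDN3 7th among the genes called higher. The ratio of summed reads was 26.5, with a counting interval of 13.7 to 58.7. Since so few etoh reads enter it, the log2 fold change was 5.66 without etoh replicate 2 and 4.22 without etoh replicate 1. EDN3 passed the filter on low counts only through its dex libraries. The gene lies on chromosome 20 from 59300427 to 59325992 on the plus strand of GRCh38.

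The EDN3 reads were spread over its transcripts. Of 228 dex reads, 69 were placed on EDN3-201, 53 on EDN3-001, 52 on EDN3-002, 49 on EDN3-003 and 5 on the short EDN3-004. The 9 etoh reads fell on 4 of these 5 transcripts, with none on EDN3-004. The aligner placed each read once, and between identical copies at random: over pairs of identical transcripts on the X and Y chromosomes, the mean chi-square of the split was 0.850 to 0.960, where random placement gives about 1. Reads from sequence shared by EDN3 transcripts were thus divided among them, so these counts do not tell how many forms of the transcript were present.

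EDN1 was lower in dex. It had 350 and 370 reads in dex, which are 35.6 and 33.2 CPM, against 579 and 746 reads in etoh, which are 59.3 and 62.8 CPM. All dex values lay below all etoh values. The mean was 34.4 ± 1.69 CPM in dex and 61.0 ± 2.44 CPM in etoh, and the log2 fold change was -0.81 (SE 0.11), so that dex held 0.570 of the etoh level. The ratio of summed reads was 0.568, with a counting interval of 0.518 to 0.623. EDN1 stood 216th by size among the 653 genes called lower in dex. It had 1 transcript, EDN1-001 of 2033 bases, and its gene lies on chromosome 6 from 12290363 to 12297194 on the plus strand of GRCh38.

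**Figure D1:**
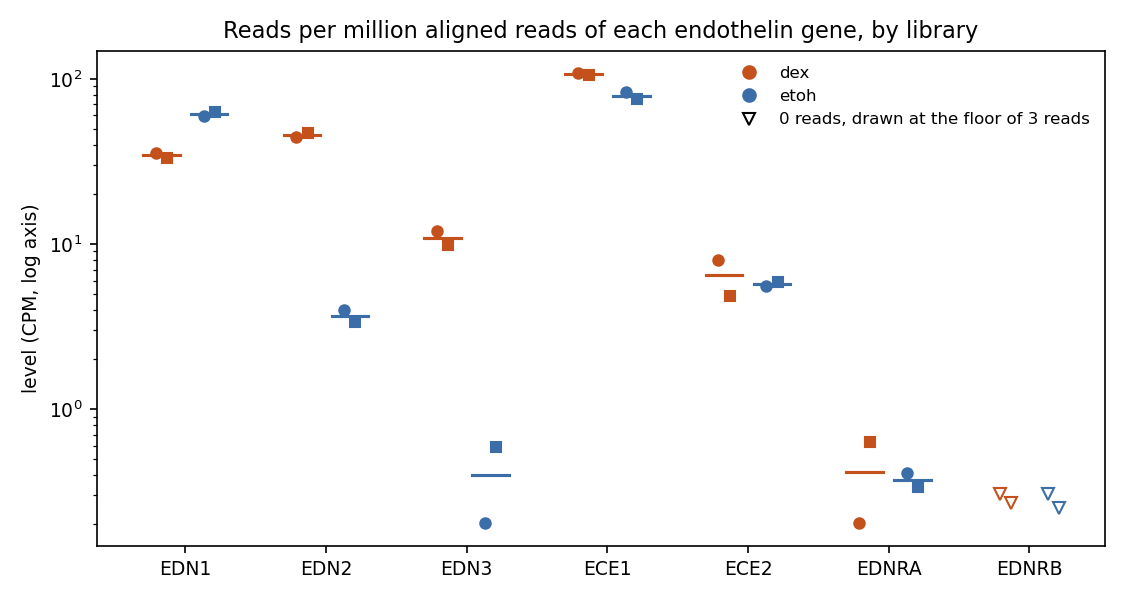
Level of each of the 7 endothelin genes in CPM on a log axis, with circles for replicate 1, squares for replicate 2, short lines for group means, and open triangles for 0 reads drawn at the level of 3 reads. EDN2 and EDN3 in dex lie far above etoh, EDN1 lies below it, ECE1 differs less, ECE2 and EDNRA overlap between the groups, and EDNRB has no reads.

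Read against each other, EDN2 led the ligand transcripts in dex and EDN1 led them in etoh. The ratio of EDN2 to EDN1 reads was 1.25 and 1.41 in dex, against 0.0674 and 0.0536 in etoh. Its 95% counting intervals were 1.08 to 1.44 and 1.23 to 1.62 in dex, against 0.0474 to 0.0932 and 0.0380 to 0.0737 in etoh. On average the ratio was 22.0 times as high in dex, and no library of one group came near the other group. EDN2 has the shorter transcript, so the ratio per kilobase was higher in both groups, at 2.18 ± 0.185 in dex and 0.0991 ± 0.0159 in etoh. The pair was chosen for this difference, which is therefore a description.

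The pool of ligand transcripts was larger in dex and differently composed. EDN1, EDN2 and EDN3 together had 92.2 and 90.0 CPM in dex, against 63.5 and 66.7 CPM in etoh, or 1.40 times as much in dex. In dex, EDN2 made up 50.2% ± 2.65 of the ligand reads, EDN1 37.8% ± 1.21 and EDN3 12.0% ± 1.45. In etoh, EDN1 made up 93.7% ± 0.485, EDN2 5.67% ± 0.881 and EDN3 0.603% ± 0.396. EDN1 was 26.6 CPM lower in dex (a difference of -26.6), and EDN2 and EDN3 were 42.0 and 10.5 CPM higher, which left the sum 26.0 CPM higher. Counted per kilobase, the sum was 58.3 ± 0.222 RPKM in dex and 33.1 ± 0.954 RPKM in etoh, which is 1.76 times as much in dex, and EDN2 made up 63.2% ± 2.49 of it in dex and 8.97% ± 1.34 in etoh.

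**Figure D2:**
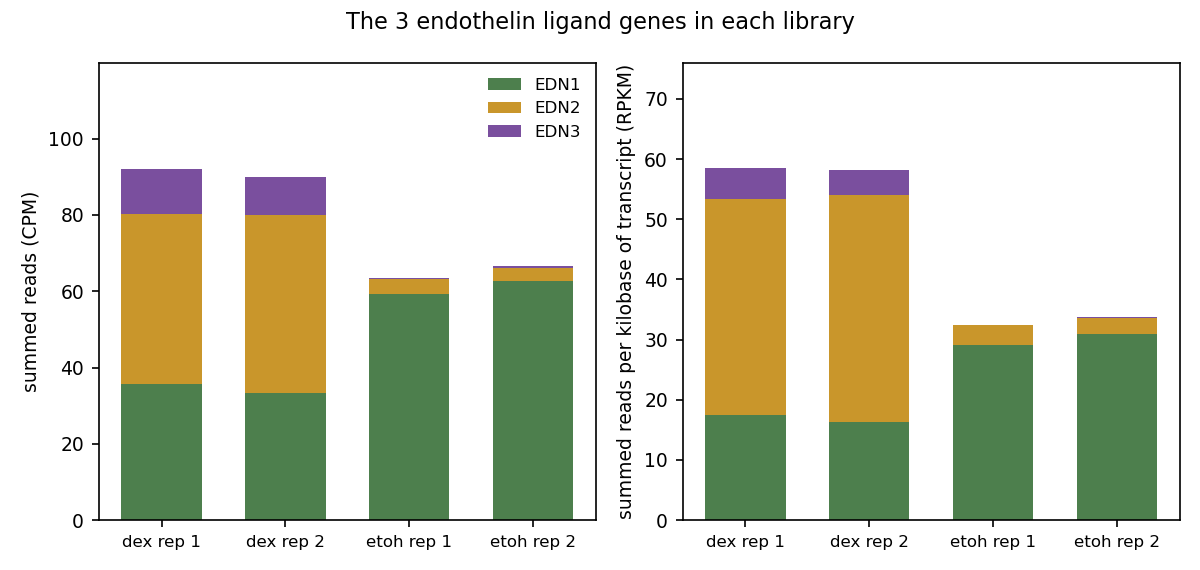
Summed level of the 3 ligand genes in each library, with dex libraries on the left of each panel and etoh libraries on the right, in CPM (left panel) and RPKM (right panel), and colours for EDN1, EDN2 and EDN3. The dex bars reach 92.2 and 90.0 CPM and are mostly EDN2 and EDN1, and the etoh bars reach 63.5 and 66.7 CPM and are nearly all EDN1.

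ECE1, the enzyme that cuts big endothelin to the active peptide, was the converting enzyme counted in these cells. It had 1063 and 1173 reads in dex, which are 108 and 105 CPM, against 813 and 895 reads in etoh, which are 83.3 and 75.3 CPM. Both dex libraries lay above both etoh libraries, by less than for the ligands. The mean was 107 ± 2.01 CPM in dex and 79.3 ± 5.64 CPM in etoh, a log2 fold change of 0.45 (SE 0.11) or 1.36-fold. ECE1 was no longer called without etoh replicate 2, where its log2 fold change was 0.37. ECE1 lies on chromosome 1 from 21217247 to 21345572 on the minus strand of GRCh38.

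The shares of the ECE1 transcripts differed between the groups by less than counting error. ECE1-001, the longest at 5099 bases, took 39.1% of the ECE1 reads in dex (exact 95% interval 37.1 to 41.2) and 40.2% in etoh (37.8 to 42.5). ECE1-005 took 28.0% in dex (26.1 to 29.9) and 27.1% in etoh (25.0 to 29.3). ECE1-002, ECE1-006 and ECE1-008 each took 10.3% to 10.9% in dex and 10.1% to 11.1% in etoh. These intervals cover counting error only, and the shares also depend on how reads from common exons were divided.

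ECE2, a second converting enzyme known mainly from nervous tissue, was listed mainly with reads on a transcript of a neighbouring gene. Under its symbol there were 79 and 54 reads in dex, which are 8.04 and 4.85 CPM, against 54 and 70 reads in etoh, which are 5.53 and 5.89 CPM. The groups overlapped, and the log2 fold change was 0.18 (SE 0.25), which was not called. Of these reads, 79.0% were on ECE2-002, a transcript that GENCODE 29 assigns to EEF1AKMT4, which encodes a protein methyltransferase. The other 21.0% were on ECE2-001, which GENCODE 29 names EEF1AKMT4-ECE2, a transcript that runs through both genes.

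The 5 transcripts that GENCODE 29 still names ECE2 had 0 reads in all 4 libraries, where a count of 0 lies below a floor of 3 reads or 0.252 to 0.307 CPM. Of all stretches of 36 bases in ECE2-001, 86.0% also occur in those 5 transcripts and 13.1% occur in ECE2-002. ECE2-001 had 26 reads in dex and 28 in etoh, and the 5 transcripts that share most of its sequence had none. GENCODE 29 places ECE2 on chromosome 3 from 184276011 to 184293031 and EEF1AKMT4 from 184249650 to 184259585, both on the plus strand of GRCh38.

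**Figure D3:**
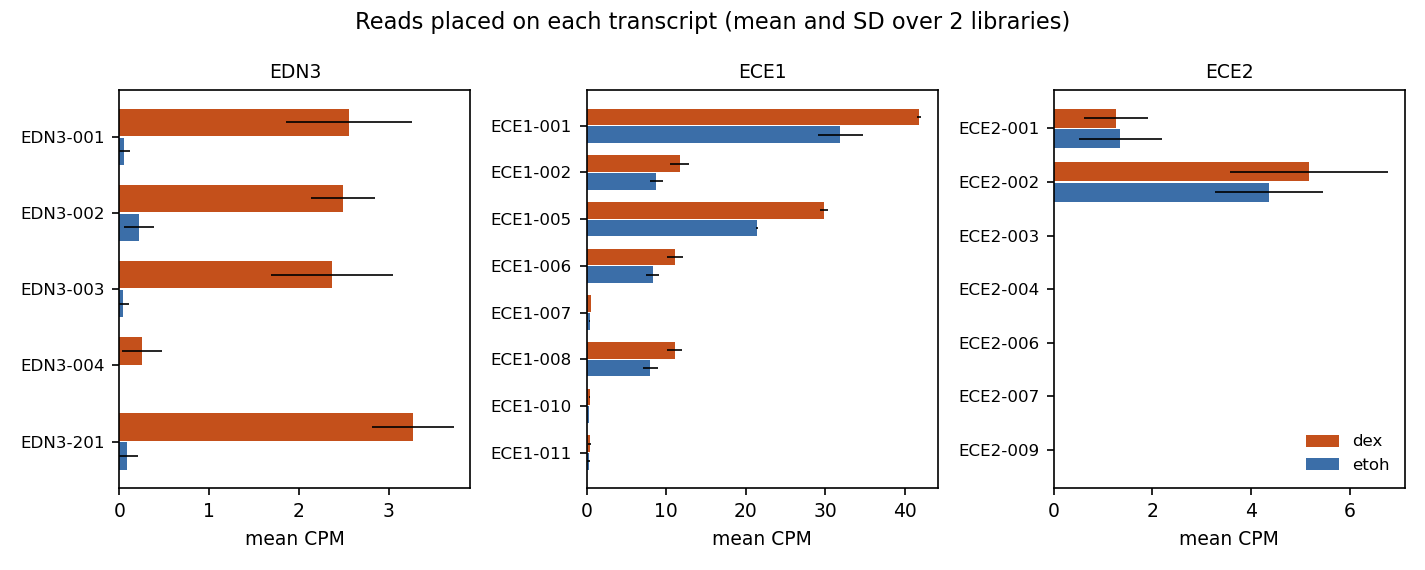
Mean level in CPM of each transcript of EDN3, ECE1 and ECE2, with dex above etoh and bars of 1 SD over 2 libraries. EDN3 reads in dex are spread over 4 long transcripts, ECE1 transcripts keep their order in both groups, and ECE2 reads lie on ECE2-002 and ECE2-001 with 0 on the other 5 transcripts.

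The receptor genes were not detected beyond a few reads. EDNRA had 2 and 7 reads in dex, which are 0.203 and 0.628 CPM, against 4 and 4 reads in etoh, which are 0.410 and 0.336 CPM. The groups overlapped at this depth, and the ratio of summed reads was 1.18 with a counting interval of 0.403 to 3.51. EDNRB had 0 reads in every library, which lies below a floor of 0.269 to 0.305 CPM in dex and 0.252 to 0.307 CPM in etoh. Neither receptor gene passed the filter on low counts, so they were not in the fit. EDNRA lies on chromosome 4 from 147480917 to 147544954 (plus strand) and EDNRB on chromosome 13 from 77895481 to 77975529 (minus strand) of GRCh38.

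Per kilobase, the order of the members differed between the groups. In dex, EDN2 came first at 36.8 ± 1.31 RPKM, followed by ECE1 at 32.3 ± 0.937, EDN1 at 16.9 ± 0.833, EDN3 at 4.51 ± 0.698, the reads listed as ECE2 at 3.21 ± 1.07, and EDNRA at 0.104 ± 0.0777 RPKM. In etoh, EDN1 came first at 30.0 ± 1.20 RPKM, followed by ECE1 at 23.9 ± 2.15, EDN2 at 2.96 ± 0.359, the reads listed as ECE2 at 2.78 ± 0.356, EDN3 at 0.155 ± 0.110 and EDNRA at 0.0942 ± 0.0118 RPKM. EDN2 and ECE2 in etoh, and EDN3 and EDNRA in etoh, did not differ beyond the spread between libraries. In dex, EDN3 and ECE2 lay close together, with 4.02 RPKM in the lower EDN3 library and 3.96 RPKM in the higher ECE2 library.

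In all, 5 of the 7 members were tested in edgeR's quasi-likelihood fit over 14777 genes, and at a Benjamini-Hochberg adjusted p of 0.05 EDN2, EDN3 and ECE1 were called higher, EDN1 was called lower and ECE2 was not called. The background was 11.4% of all tested genes called, 6.98% higher and 4.42% lower in dex. The libraries of dex and etoh did not overlap for 4 of the 5 tested members, against 53.3% of all tested genes. Because the members were chosen on this contrast, nothing is read from these counts.

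The genes whose 4 library values most resembled those of EDN2 were FGD4, FKBP5, PER1, CIDEC and ARRB1. Likeness was the Euclidean distance between log2(CPM + 1) values, centred on each gene's mean over the 4 libraries, among 12090 other tested genes with at least 2 CPM. FGD4, an exchange factor for the small GTPase CDC42, was nearest at a distance of 0.0983, with 132 ± 3.94 CPM in dex and 11.5 ± 1.27 CPM in etoh. FKBP5, which encodes a chaperone partner of steroid receptors, followed at 0.171, with 231 ± 1.78 CPM in dex and 22.4 ± 0.359 CPM in etoh. The clock gene PER1 was at 0.331, the lipid droplet gene CIDEC at 0.384 and ARRB1, which encodes beta-arrestin 1, at 0.435. EDN2 had only 3.68 CPM in etoh, so the added 1 CPM shrinks its own difference and affects this order. The edgeR log2 fold change was 3.66 for EDN2, 3.55 for FGD4, 3.38 for FKBP5, 3.87 for PER1, 4.12 for CIDEC and 3.14 for ARRB1. By that measure PER1 lay nearer to EDN2 than FKBP5 did.

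For EDN1 the nearest genes were KIRREL, BHLHE40, SRC, CLDN1 and MEIOB, at distances of 0.0319 to 0.0876. KIRREL, which encodes a cell adhesion protein, had 85.5 ± 2.64 CPM in dex and 149 ± 5.72 CPM in etoh. BHLHE40, a transcriptional repressor tied to the circadian clock, had 70.9 ± 1.81 CPM in dex and 129 ± 2.17 CPM in etoh, and the kinase gene SRC had 71.3 ± 6.78 CPM in dex and 124 ± 7.85 CPM in etoh. MEIOB, a meiosis gene, had 1.96 ± 0.106 CPM in dex and 3.95 ± 0.367 CPM in etoh. At so low a level the added 1 CPM shrinks differences. The log2 fold change of MEIOB was -0.995, against -0.81 for EDN1, and DESeq2 did not call MEIOB. These genes share the libraries with EDN1 and EDN2, and the likeness is a description over 4 values.

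Genes around the endothelins were read from the same fit. The lists were proprotein convertases, peptidases, effectors of endothelin receptors, factors reported at the EDN1 promoter and other vasoactive genes. Of 47 tested genes on 5 lists, 8 rose and 4 fell in dex, which is 25.5% called, and their median log2 fold change was 0.07, against 11.4% called and a median of -0.0026 over all tested genes. The lists were chosen with earlier results of these data known, so nothing is read from the difference between these shares. Among the proprotein convertases, which trim the endothelin precursors, 1 of 4 tested genes rose and none fell (median 0.23). PCSK5 had 206 and 246 reads in dex against 102 and 133 reads in etoh, that is 21.5 ± 0.796 CPM in dex and 10.8 ± 0.525 CPM in etoh, a log2 fold change of 1.01 (SE 0.16, adjusted p = 7.9e-05 by edgeR). FURIN, the best known of these enzymes, was at 0.12 (SE 0.13) and was not called.

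Of 8 peptidases that belong to the neprilysin family or are known to cut endothelins, 3 had enough reads to be tested. Of these 3, 0 were called by edgeR, DESeq2 or limma-voom, and 0 had an unadjusted edgeR p below 0.05. Over all tested genes edgeR called 11.4%. CTSA, a lysosomal carboxypeptidase, had 19.2 ± 1.90 CPM in dex and 18.1 ± 0.762 CPM in etoh. PHEX, a membrane peptidase listed because it is of the same family as ECE1, had 4.15 ± 0.0296 CPM in dex and 4.17 ± 0.533 CPM in etoh. MME, which encodes neprilysin, an endothelin-degrading enzyme, had 1 read in all 4 libraries.

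Among the G proteins and effectors used by endothelin receptors, 3 of 20 tested genes rose and 1 fell (median 0.09). Over all tested genes 6.98% rose and 4.42% fell. ARRB1, whose product binds activated receptors and takes them out of signalling, had 578 and 586 reads in dex against 72 and 66 reads in etoh. The mean was 55.7 ± 4.38 CPM in dex and 6.46 ± 1.29 CPM in etoh, a log2 fold change of 3.14 (SE 0.16, adjusted p = 3.5e-12 by edgeR). PRKCD, a protein kinase C, rose by 1.52 on the log2 scale (SE 0.16, adjusted p = 4.7e-07 by edgeR), and ITPR3, a calcium release channel, by 0.57 (SE 0.11, adjusted p = 7.7e-04 by edgeR). PRKCE, another protein kinase C that was named after its values were seen, fell by 0.71 (SE 0.16, adjusted p = 0.0049 by edgeR). The receptor-coupled subunits GNAQ and GNA11 were at -0.08 (SE 0.10) and 0.20 (SE 0.12). Without dex replicate 2, 5 genes of this list rose.

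Of 13 transcription factors and cofactors reported to act at the EDN1 promoter, 2 rose and 2 fell (median -0.05). The shares over all tested genes were 6.98% and 4.42%. SMAD3, a mediator of TGF-beta signals, had 1435 and 1692 reads in dex against 2978 and 4065 reads in etoh. The mean was 149 ± 4.17 CPM in dex and 323 ± 26.1 CPM in etoh, a log2 fold change of -1.10 (SE 0.10, adjusted p = 2.8e-08 by edgeR). JUN, an AP-1 subunit, fell by 0.78 (SE 0.14, adjusted p = 5.3e-04 by edgeR), and FOXO1, a factor restrained by insulin signalling, rose by 1.20 (SE 0.19, adjusted p = 9.0e-05 by edgeR). FOS, the partner of JUN in AP-1 and named after its values were seen, rose by 0.72 (SE 0.23, adjusted p = 0.040 by edgeR). HIF1A, which encodes the hypoxia-inducible factor, and RELA, an NF-kB subunit, were at -0.13 (SE 0.09) and -0.05 (SE 0.11). FOS was not called without dex replicate 1, without etoh replicate 2, with DESeq2 or with the largest transcript of each gene, which left FOXO1 as the 1 gene that rose, and 3 genes fell without dex replicate 2 or etoh replicate 2.

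Among other vasoactive peptides, their receptors and the nitric oxide synthases, 7 of 33 genes had enough reads to be tested. Of these 7 genes, 2 rose and 1 fell (median 0.02), beside 6.98% and 4.42% of all tested genes. BDKRB2, the bradykinin B2 receptor, had 73 and 83 reads in dex against 288 and 336 reads in etoh. The mean was 7.44 ± 0.0169 CPM in dex and 28.9 ± 0.870 CPM in etoh, a log2 fold change of -1.94 (SE 0.16, adjusted p = 9.1e-09 by edgeR). VIPR1, a receptor for vasoactive intestinal peptide, rose by 2.11 (SE 0.35, adjusted p = 1.9e-04 by edgeR), with 37 and 55 reads in dex against 8 and 14 reads in etoh. NPR1, a receptor for natriuretic peptides, rose by 1.15 (SE 0.32, adjusted p = 0.021 by edgeR), and it was not called without dex replicate 1, without etoh replicate 2 or with DESeq2. ADM, which encodes the vasodilator adrenomedullin, had 10.6 ± 0.597 CPM in dex and 11.5 ± 2.05 CPM in etoh and was not called.

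**Figure D4:**
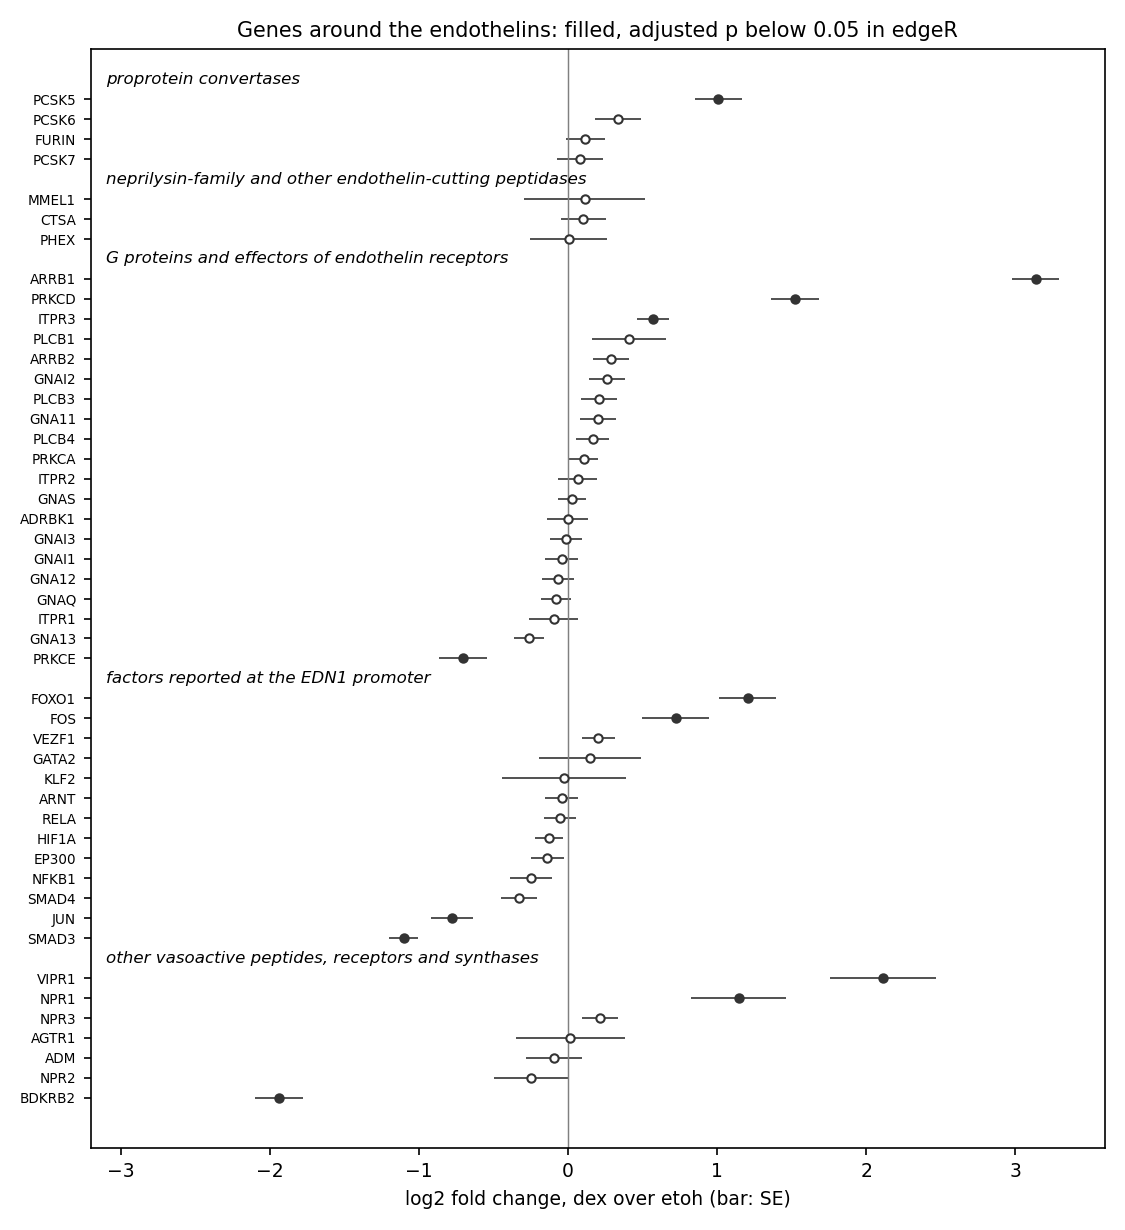
Log2 fold change of dex over etoh for the 47 tested genes of the 5 lists, with bars of 1 SE and filled points for an adjusted p below 0.05 in edgeR. Most points are open and near 0, with ARRB1, VIPR1 and PRKCD at the high end and BDKRB2 and SMAD3 at the low end.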

How the data were processed

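The 3 h time was taken from the names of the deposited files, since the treatment text of the labels gives none. Each of the 4 deposited files held raw counts of aligned reads per transcript, with transcript lengths and 1 row of unaligned reads (17.2% to 18.7% of reads), which was left out. CASAVA, Bowtie, SAMtools and DESeq2 are named, without versions, per the submitters' processing notes; for aligner settings, genome build and strand, the sources used here give nothing. Counts were summed over the transcripts of each gene identifier, and CPM and RPKM used the total of aligned reads. Genes were tested in R 4.3.3 with edgeR 4.0.16 (filterByExpr with a minimum count of 10, TMM factors, quasi-likelihood test, two-sided, Benjamini-Hochberg over 14777 genes). The SE is the log2 fold change divided by the square root of F. The code was tested on simulated data. Positions and current transcript names came from GENCODE 29. No pair of libraries was a duplicate: chi-square per gene was at least 5.81. Members and lists were chosen with earlier results of these data known. Named genes were all members, up to 3 called genes with the smallest p-values per list (or the 2 most abundant) and the 5 nearest to EDN2 and to EDN1; FURIN, MME, GNAQ, GNA11, PRKCE, FOS, HIF1A, RELA and ADM were added after their values were seen. DESeq2 1.42.0 and limma 3.58.1 (voom) served as alternatives. Floors of 3 reads and intervals cover counting error only.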

Additional observations from a re-analysis of the deposited data

How the results depend on the processing

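The settings tried were other scalings, filters and tools, the largest transcript, blocks and each library left out. The members were chosen on this contrast, so their values under these settings describe the processing and are no support for the difference. Without each library in turn, the log2 fold change ranged from -0.86 to -0.75 for EDN1, 3.52 to 3.79 for EDN2 and 4.22 to 5.66 for EDN3. The EDN2 to EDN1 ratio ranged from 1.25 to 1.41 in dex and 0.0536 to 0.0674 in etoh, the summed ligand level from 1.37 to 1.43 times, and the pathway genes called from 10 to 15. Per kilobase these were 2.18, 0.0991 and 1.76. Of all genes, 1684 were called, 1046 with DESeq2, 995 at an adjusted p of 0.01, and 1111 to 1965 without each library, the lowest without etoh replicate 1. With the replicate number as a block 1558 genes were called. Libraries of the same number did not deviate together (correlation of deviations -0.14 over 14777 genes), and the crossed pairing, added after seeing the data, gave 2710. EDN3 in etoh, EDNRA and EDNRB had at most 7 reads per library, so their levels and ratios are imprecise.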

Other observations

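The genome neighbours of the members that differed between groups were looked up after the members' values were known. The 3 nearest protein-coding genes on each side of EDN1, EDN2, EDN3 and ECE1 gave 24 genes, of which 17 were tested. Of these, 0 were called by edgeR, by DESeq2 or by limma-voom, where edgeR called 11.4% of all tested genes. An unadjusted edgeR p below 0.05 was found for 3 (HIVEP1, TMEM170B and SCMH1). The neighbours lay from 21.7 kb (HIVEP3) to 1061 kb (GFOD1) away, and of the 6 beside EDN2 only 3 were tested. Nothing is read from a count of 0 among so few genes. HIVEP3, which lies 21.7 kb from EDN2 and encodes a zinc finger protein, had 2.97 ± 0.884 CPM in dex and 2.11 ± 0.230 CPM in etoh. HIVEP1, 125 kb from EDN1, had 14.3 ± 1.74 CPM in dex and 19.4 ± 0.270 CPM in etoh (log2 fold change -0.42, SE 0.16). PHACTR1, on the other side of EDN1, had 0.371 ± 0.237 CPM in dex and 0.593 ± 0.114 CPM in etoh and was not tested. Next to EDN3, ZNF831 had 0 reads in every library, and PHACTR3 had 2.41 ± 0.529 CPM in dex and 2.57 ± 0.422 CPM in etoh.

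Many genes on the list of other vasoactive genes had too few reads to be tested. APLN, which encodes apelin, had 0 and 1 reads in dex against 10 and 3 reads in etoh. BDKRB1, the bradykinin B1 receptor, had 3 and 4 reads in dex against 7 and 11 reads in etoh. ACE, the angiotensin-converting enzyme gene, had 12 and 8 reads in dex against 5 and 2 reads in etoh. APLN, BDKRB1 and ACE were picked after their values were seen and carry no test.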
